A study of Mus musculus with 6 samples.

Results

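Digestive enzymes of the exocrine pancreas were followed in liver RNA of 2 mouse substrains. The 10 genes were a fixed set of acinar cell products: the serine protease precursors Ctrb1, Prss2, Cela1, Cela2a and Cela3b, the carboxypeptidases Cpa1 and Cpb1, and the lipid-digesting Cel, Pnlip and Clps. They were found by symbol in the platform annotation, and a gene with several probe sets would have been represented by the one with the highest mean. Each had at most 1 probe set, out of 41345 on the array. Of the 10 genes, 8 had a probe set of their own, among 22180 genes so covered in the series. Cela2a had 1 that also carries the symbol of Ctrc, and no probe set was listed for Pnlip, which was therefore not analysed here. Nearly identical relatives can hybridize to one probe set, and the locations of the probes are not given in the sources used here, and trypsinogen and elastase signals may in part come from paralogs. In the RefSeq gene order Cela3a lies next to Cela3b, and Ctrc next to Cela2a.

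The arrays measured total liver RNA of 3 Balb/c and 3 Balb/cBy males, 1 array per mouse. All ate a high-fat diet, in which fat gave 58% of the energy, from the age of 8 weeks to that of 20 weeks, that is for 12 weeks. The series calls the Balb/c mice WT and the Balb/cBy mice KD, without naming a gene, and Balb/cBy is a related substrain known to carry a spontaneous deletion in Acads. The labels call the mice of a group biological replicates, and p-values measure the spread between them. Values are log2 RMA levels per probe set, a scale on which 1 unit is a doubling.

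Acinar cells of the pancreas make, store and secrete digestive enzymes, most of them as inactive precursors that are activated in the gut. Trypsin starts that cascade by cutting the precursors of chymotrypsin, elastase, the carboxypeptidases and colipase. The enzyme genes are driven in acinar cells by the transcription factor complex PTF1, which contains PTF1A and RBPJL or RBPJ and binds a bipartite site made of an E-box and a TC-box. The liver lies next to the pancreas in the abdomen, and is not regarded as a main site of synthesis of these enzymes.

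The DNA just before 5 of the start sites is printed to show the members with the largest and the smallest excess on 1 array, Balb/c replicate 3, described below. By the excess over the mean of the other 5 arrays, the 3 largest were Ctrb1, Cpb1 and Cpa1, and the 2 smallest Cela1 and Cel. Each run holds the 250 bases before the RefSeq start site, read 5′ to 3′ on the gene's strand, in the build GRCm38.p6: Ctrb1 at chr8:111691011-111691260 (- strand), Cpb1 at chr3:20275734-20275983 (- strand), Cpa1 at chr6:30638968-30639217 (+ strand), Cela1 at chr15:100687921-100688170 (- strand) and Cel at chr2:28563404-28563653 (- strand). Capitals mark letters that match 1 of 3 motifs on either strand. One motif is the E-box CACCTG found in PTF1 sites. Another is TTCCCA, the core that RBPJ recognizes in the TC-box. The last is the TATA box TATAAA.
Ctrb1 promoter: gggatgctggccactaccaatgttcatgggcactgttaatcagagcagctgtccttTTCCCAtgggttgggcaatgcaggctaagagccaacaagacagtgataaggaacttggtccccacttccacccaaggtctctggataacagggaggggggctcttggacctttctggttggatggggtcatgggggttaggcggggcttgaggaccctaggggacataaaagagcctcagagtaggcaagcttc
Cpb1 promoter: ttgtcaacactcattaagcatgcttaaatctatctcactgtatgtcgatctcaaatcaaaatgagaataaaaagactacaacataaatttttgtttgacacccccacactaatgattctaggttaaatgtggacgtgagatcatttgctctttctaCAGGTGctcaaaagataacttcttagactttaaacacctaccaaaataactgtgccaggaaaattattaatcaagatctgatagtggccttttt
Cpa1 promoter: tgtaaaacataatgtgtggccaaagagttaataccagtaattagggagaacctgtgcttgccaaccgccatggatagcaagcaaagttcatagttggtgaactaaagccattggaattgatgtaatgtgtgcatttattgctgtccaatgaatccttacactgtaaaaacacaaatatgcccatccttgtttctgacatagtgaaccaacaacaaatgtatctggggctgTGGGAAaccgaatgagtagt
Cela1 promoter: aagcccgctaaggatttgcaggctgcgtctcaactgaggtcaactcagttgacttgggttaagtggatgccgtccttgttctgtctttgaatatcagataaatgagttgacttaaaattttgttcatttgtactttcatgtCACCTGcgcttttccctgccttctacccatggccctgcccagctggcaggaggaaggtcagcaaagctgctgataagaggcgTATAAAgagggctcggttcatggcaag
Cel promoter: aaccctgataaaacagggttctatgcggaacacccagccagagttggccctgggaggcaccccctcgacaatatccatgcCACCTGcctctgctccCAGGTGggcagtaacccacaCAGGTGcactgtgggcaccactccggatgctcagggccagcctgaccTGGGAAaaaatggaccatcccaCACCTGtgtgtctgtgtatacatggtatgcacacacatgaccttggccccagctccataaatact
RefSeq start sites were at hand for 9 of the 10 genes, Clps being the one without an entry. CACCTG was found before 6 of the 9 genes, against 17.2% of 32851 RefSeq promoters of the same length. TTCCCA was found before 6 of 9 as well, against 21.6%, and TATAAA before 3 of 9, against 12.4%. CACCTG and TTCCCA both occurred, at any spacing and on either strand, before 3 of 9, namely Cel, Cela2a and Prss2, against 3.91%. Such a pair need not form 1 site: before Cela2a the matches began 218 and 85 bases from the start. No match overlapped another. Among the printed windows, Ctrb1 and Cpa1 held TTCCCA alone, Cpb1 CACCTG alone, Cela1 CACCTG with a TATA box, and Cel 4 copies of CACCTG with 1 of TTCCCA. The matches are letter matches and do not show that a factor binds.

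The liver label held on every array. Alb, serum albumin, read between 14.16 and 14.22 on the 6 arrays, and Ttr, transthyretin, between 13.84 and 13.98. Array medians over the 23521 probe sets with 1 symbol lay between 7.98 and 8.03. Balb/c replicate 3 nevertheless had the most probe sets that stood apart: 711 of these (3.02%) read more than 0.3 above all other arrays there. Balb/cBy replicate 2 came next with 508 (2.16%), and each of the remaining arrays had 61 to 227. Balb/c replicate 3 had been singled out in earlier results of these data, so what follows on it is a description with no test.

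Chymotrypsinogen B, encoded by Ctrb1, had the widest range of the 8 enzymes. Balb/c replicates 1, 2 and 3 read 8.43, 8.45 and 9.69, and the same replicates of Balb/cBy 8.19, 8.25 and 8.34, the order used for all genes here. One array was far above the rest, and the other 5 lay within 0.26. The level on Balb/c replicate 3 was 2.37-fold that of the other Balb/c arrays, taken from the mean of their log2 values. The Balb/c mean was 8.86 ± 0.72 (SD, n = 3), that of Balb/cBy was 8.26 ± 0.071 (SD, n = 3), and the groups did not overlap. This separation, with Balb/cBy lower, was seen for 2 of the 8 enzymes, Ctrb1 and Cel, and for 3.53% of all tested probe sets.

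The trypsinogen gene Prss2, an anionic trypsinogen, was dim. It read 6.27, 6.43 and 6.97 in Balb/c and 6.42, 6.42 and 6.51 in Balb/cBy. Balb/c replicate 3 was again the highest, by 0.45 over the next array, while the other Balb/c arrays lay within or below the range of Balb/cBy. As a stand-in for background, 8.01 was taken, the 95th percentile of the mean levels of 1108 olfactory receptor probe sets. The means of Prss2, Cpb1 and Cela3b over all arrays lay under it, and those of the other 5 enzymes above it. RMA is known to compress differences at the low end of its scale, and its effect on these genes was not measured.

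The elastase family differed within itself. Cela1, chymotrypsin-like elastase 1, varied least, with 9.01, 8.88 and 9.15 in Balb/c and 9.03, 8.90 and 8.99 in Balb/cBy. Its groups overlapped throughout, and Balb/c replicate 3 was 0.12 above the next array. Cela3b, a pancreatic protease of the same family, read 7.85, 7.98 and 8.37 in Balb/c and 7.81, 7.48 and 7.87 in Balb/cBy. The highest array, Balb/c replicate 3, stood 0.40 above the next, and Balb/cBy replicate 2 stood lowest. The probe set shared by Cela2a and Ctrc read 8.07, 8.05 and 8.46 in Balb/c and 8.14, 8.15 and 8.32 in Balb/cBy. A second probe set, annotated to Ctrc alone, a chymotrypsin that degrades trypsinogen, read 8.27 on Balb/c replicate 3 and from 8.12 to 8.43 elsewhere, without an excess there.

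Both carboxypeptidases, which trim amino acids from the end of peptides, were highest on the same array. Cpb1, specific for basic residues, read 6.24, 6.53 and 7.32 in Balb/c and 6.47, 6.23 and 6.40 in Balb/cBy. Its excess on Balb/c replicate 3 over the next array was 0.79. Cpa1, carboxypeptidase A1, read 8.07, 8.22 and 8.73 in Balb/c and 8.32, 7.93 and 7.95 in Balb/cBy. Here the excess was 0.42, and the array next in order was Balb/cBy replicate 1, so the groups overlapped for both genes.

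The lipid-digesting members split. Clps, colipase, which anchors pancreatic lipase at the fat droplet, read 8.10, 8.07 and 8.58 in Balb/c and 8.13, 8.24 and 8.02 in Balb/cBy. It repeated the single high array, with the other 5 within 0.21. Cel, the bile salt-activated lipase, read 8.24, 8.41 and 8.44 in Balb/c and 8.14, 7.86 and 7.97 in Balb/cBy. The third Balb/c array was only 0.031 above Balb/c replicate 2, and the 3 Balb/c arrays together lay above the 3 Balb/cBy arrays. Without Balb/c replicate 3 the groups still did not overlap for Cel and, more narrowly, for Ctrb1, that is for 2 of the 8 enzymes, where 10.1% of all probe sets had Balb/cBy as the lower group.

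**Figure D1:**
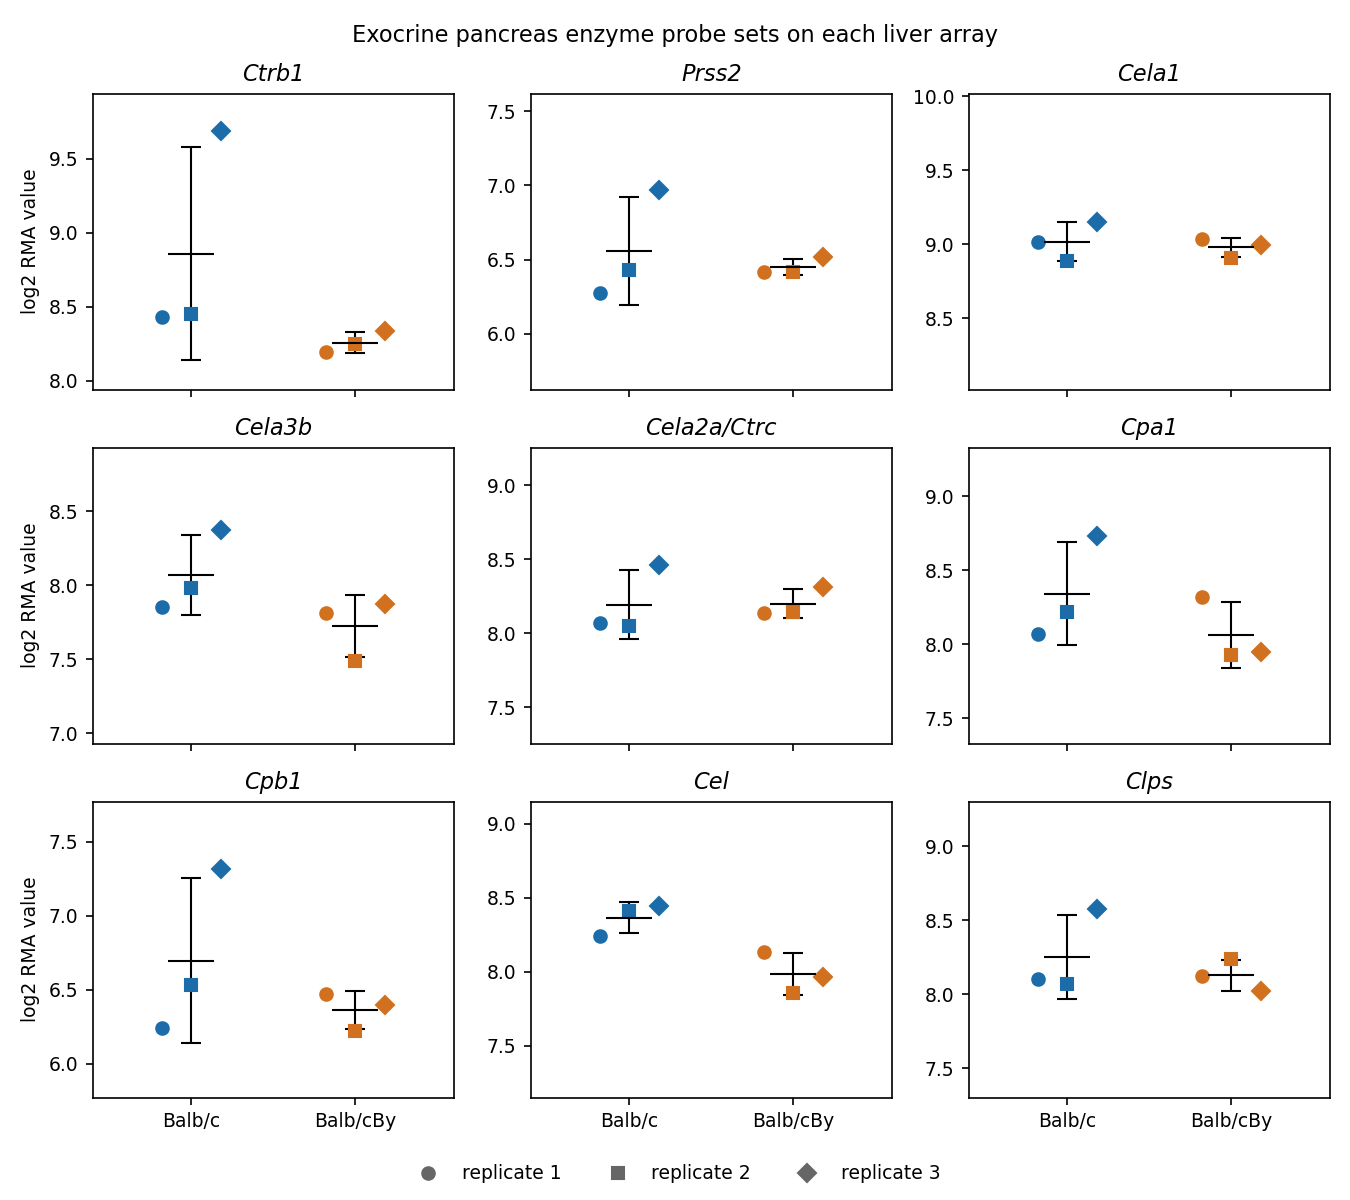
Log2 RMA value of each enzyme probe set (y axis, every panel spanning 2 log2 units) on the 3 Balb/c arrays (blue) and the 3 Balb/cBy arrays (orange), with symbols for replicates and a bar with whiskers for the mean ± SD. Balb/c replicate 3 (blue diamond) is the highest point in every panel, most clearly for Ctrb1 at 9.69, while Cel parts the groups as a whole.

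Across the 8 enzymes, Balb/c replicate 3 was the highest of the 6 arrays 8 times, while 16.3% of all tested probe sets had their highest value there. The excess over all other arrays was above 0.3 in 6 of 8, in all but Cela1 and Cel, against 3.02% of all probe sets. Set against the mean of the other 5 arrays it ran from 0.18 for Cela1 to 1.36 for Ctrb1, with a median of 0.57, beside a median of -0.016 over all probe sets. The mean of the 8 levels was 8.41 on Balb/c replicate 3 and between 7.66 and 7.87 on the other arrays. At the other end, Balb/cBy replicate 2 was the lowest array for 4 of the 8, Cel, Cpa1, Cpb1 and Cela3b, and for 20.7% of all probe sets. In a piece of tissue, more cells of a type and more RNA per cell cannot be told apart.

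Other acinar products were read from a list of 37 symbols. Of these, 27 had a probe set of their own, 6 had shared ones alone and 4 were not listed. Balb/c replicate 3 was the highest array for 15 of the 27, against 16.3% of all probe sets. It exceeded all others by more than 0.3 in 5, against 3.02% of all probe sets: Try4, 2210010C04Rik, Reg1, Dmbt1 and Sycn. The last pair was named after the values were seen. The median excess over the other 5 arrays was 0.15, with a range from -0.051 to 1.61. The mean over all arrays lay above the olfactory receptor level of 8.01 for 3 of the 27, Ctrl, Ctrc and Zg16. The 5 genes with an excess above 0.3 had means under that level, from 6.10 for Dmbt1 to 7.86 for Try4.

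Try4, a trypsinogen, read 9.20 on Balb/c replicate 3 and from 7.43 to 7.66 on the other arrays, an excess of 1.54 over the next one, beside 1.24 for Ctrb1. The trypsinogen gene 2210010C04Rik read 7.19 there and at most 6.50 elsewhere. Reg1, which encodes a secreted lectin-like protein of acinar cells, read 7.48 against at most 6.78. Dmbt1, a scavenger receptor-like secreted glycoprotein, read 6.53 against at most 6.08, and Sycn, syncollin of zymogen granules, 8.18 against at most 7.82. The probe sets shared by 6 pancreatic amylase symbols (Amy2b and Amy2a1 to Amy2a5), also named after their values were seen, read 9.17 to 9.38 on that array and 7.98 to 8.45 on the others. The other amylase probe sets gave less. Those shared by Amy2a5 and Amy2a2 alone read 7.81 there, 0.32 above the next array, and the one annotated to Amy2b alone read 4.51 there and was highest on Balb/cBy replicate 1, at 4.78. Ctrl, a chymotrypsin-like protease, read 9.06 there, 0.29 above the next array and thus just short of 0.3, and 0.50 above the mean of the other 5 arrays, as against 0.43 for Sycn. Rnase1 and Prss1, also named after their values were seen, were highest there too, by 0.21 and 0.20 over the next array. Against the mean of the other 5 arrays they stood 0.48 and 0.46 higher. Their means over all arrays, 7.20 and 6.90, lay under the olfactory receptor level. Some other acinar genes showed little or no excess. Pnliprp2, a lipase-related protein, read 8.11 within the range of the others, and Zg16, a zymogen granule lectin, read 8.28, 0.035 above the next. The trypsinogens Prss3, by the probe set annotated to it alone, and Try5 were highest on Balb/c replicate 2. On Balb/c replicate 3 they stood at -0.019 and -0.011 from the mean of the other 5 arrays. Spink1, Pla2g1b and Reg3a, like these trypsinogens named after their values were seen, stood at -0.019, -0.027 and -0.051 from it. Levels of different probe sets are not comparable, so the text compares arrays within a probe set.

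Most of the 5 transcription factors of acinar cells showed no excess on Balb/c replicate 3. Ptf1a read 7.70 on Balb/c replicate 3 and 7.64 to 8.11 on the others, Rbpjl 8.60 within 8.22 to 8.66, and Bhlha15 8.34, just below the other arrays. Gata4 was likewise within the range of the others. Nr5a2, a nuclear receptor that hepatocytes also make, was the one of the 5 with an excess above 0.3, at 10.46 against 9.83 to 10.06. Of all probe sets 3.02% had such an excess.

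Markers of neighbouring tissues were read on the same arrays. Of 14 islet genes measured, 0 exceeded the other arrays by more than 0.3 on Balb/c replicate 3, where 3.02% of all probe sets did. At that share a count of 0 is ordinary for lists this short, here and below. Their median excess over the other 5 arrays was -0.018, and their mean level there was 7.59, inside the range of 7.56 to 7.74 on the others. The hormone genes Sst, somatostatin, and Ppy, pancreatic polypeptide, read 8.10 and 8.78 there, and reached 8.40 and 8.78 on other arrays. Of 7 duct and biliary genes 0 exceeded the others by more than 0.3, with a mean level of 7.94 there and 7.90 to 8.06 on the others, and Krt19, a duct keratin, read 7.93 there. Epcam, an epithelial adhesion molecule named after its value was seen, was the 1 of them with its highest value on that array, at 7.12 against at most 7.08. Of 15 stomach and intestine genes 0 exceeded the others by more than 0.3, with a mean of 8.03 there and 7.92 to 8.10 elsewhere. Fabp2, intestinal fatty acid-binding protein, was the widest of these, at 10.96 on Balb/c replicate 3 and 10.87 on Balb/c replicate 1, with 9.84 to 10.15 on the other 4 arrays. Of 5 adipose genes 0 exceeded the others by more than 0.3, with a mean of 7.86 there and 7.71 to 8.26 elsewhere. The part that cells of other tissues play in the enzyme signal was not tested.

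**Figure D2:**
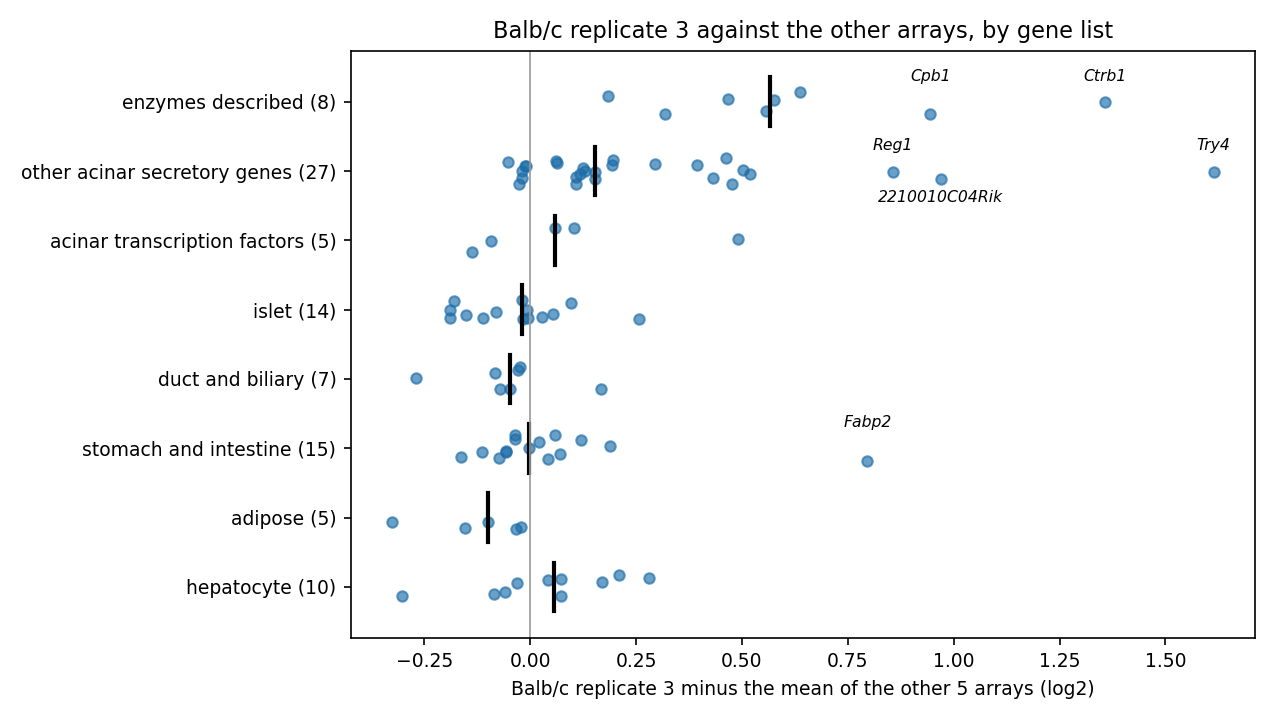
Each point is a gene with a probe set of its own, placed on the x axis by its log2 value on Balb/c replicate 3 minus the mean of the other 5 arrays, in rows for gene lists with the number of genes in brackets and a black line at the list median. The 8 enzymes have a median of 0.57 and the other acinar genes trail up to Try4 at 1.61, whereas the islet, duct and gut rows sit around 0 apart from Fabp2.

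**Figure D3:**
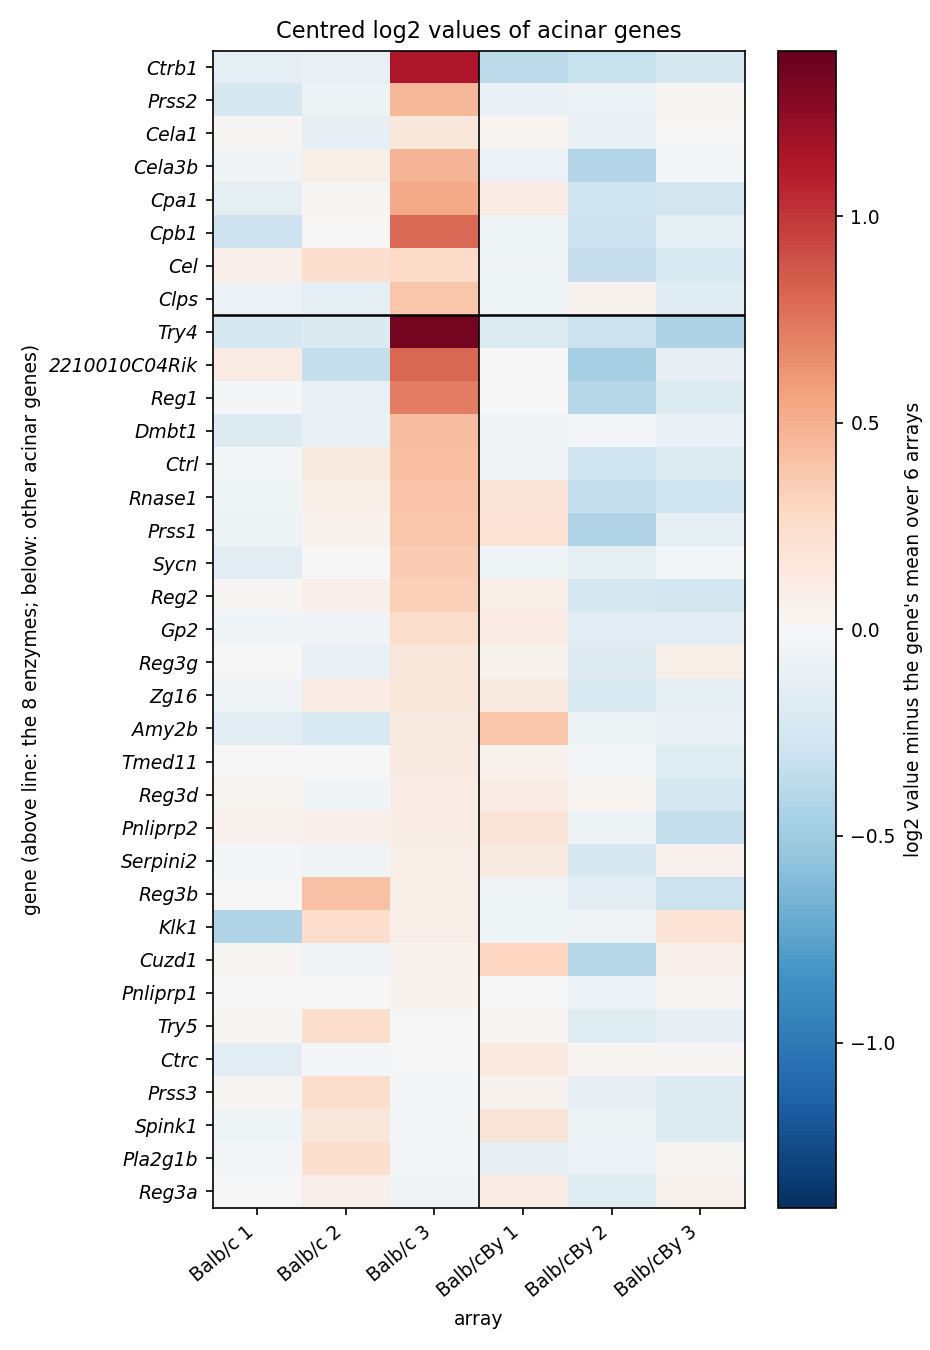
Colours give the log2 value minus the gene's own mean over the 6 arrays, for the 8 enzymes (above the horizontal line) and 27 other acinar genes ordered by their excess on Balb/c replicate 3 (below it), with the 6 arrays in columns. Red gathers in the column of Balb/c replicate 3 for Ctrb1, Cpb1, Try4, 2210010C04Rik and Reg1, and fades down the list.

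The genes most like the enzymes were sought among 818 genes with a range of at least 1 over the 6 arrays. The measure was the Pearson correlation with the mean centred profile of the 8 enzymes. The enzymes themselves and symbols of the Gm-number or Rik type were left out, so 2210010C04Rik was not ranked. The correlation is a description over 6 arrays, rests largely on Balb/c replicate 3, and was above 0.9 for 44 genes. The 5 most similar were Atrx, a chromatin remodeller (r = 0.978), Tasor, a chromatin silencing factor (0.977), Try4 (0.975), the microRNA gene Mir1933 (0.971) and Reg1 (0.971). Acinar products and genes of no digestive role stood side by side in this ranking: Atrx read 8.31 on Balb/c replicate 3 and 7.18 to 7.41 elsewhere, and Tasor 9.30 against 8.02 to 8.33. By the rank order of the 6 arrays they were less alike. The Spearman correlation was 0.49 for Atrx, 0.60 for Tasor and 0.66 for Mir1933, and 0.89 for Try4 and 0.83 for Reg1. For each of these genes the other 5 arrays spanned only 0.23 to 0.40. The ranks below Balb/c replicate 3 thus rest on small differences and do not set the genes apart.

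The comparison the study was built for, Balb/cBy against Balb/c, gave no call for any of the enzymes. With limma on all 6 arrays, 0 of the 8 passed an adjusted p of 0.05, as did 0 of 23521 probe sets (0%). At an unadjusted p under 0.05 there was 1 of the 8, Cel, lower in Balb/cBy, where 1.18% of all probe sets were. All 8 were lower in Balb/cBy, where 51% of all probe sets were, with a median difference of -0.31 beside -0.0031 over all. Balb/c replicate 3 carried much of this. Without it 5 of 8 were lower, where 51.8% of all probe sets were, the median was -0.052, and 0 passed, as against 2 of all probe sets (0.0085%).

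Cel differed by -0.38 ± 0.11 (SE, 95% interval -0.63 to -0.13; unadjusted p = 0.00813, adjusted p = 0.999 by limma). Without Balb/c replicate 3 it differed by -0.34 ± 0.12 (SE; unadjusted p = 0.0271 by limma) and was again the 1 of 8 under 0.05 in that direction, where 1.8% of all probe sets were. Ctrb1 differed by -0.60 ± 0.30 (SE, 95% interval -1.30 to 0.10; adjusted p = 0.999 by limma), and by -0.19 ± 0.10 (SE) without that array. Cela3b went from -0.35 ± 0.16 to -0.19 ± 0.14 (SE), Cpb1 from -0.33 ± 0.25 to -0.022 ± 0.13 (SE), and Cpa1 from -0.28 ± 0.19 to -0.082 ± 0.15 (SE). Prss2 turned from -0.11 ± 0.17 to 0.097 ± 0.11 (SE) and also changed sign with array weights (0.044), Clps turned from -0.12 ± 0.15 to 0.043 ± 0.11 (SE), and Cela1 from -0.039 ± 0.10 to 0.028 ± 0.11 (SE). The shared probe set of Cela2a and Ctrc differed by 0.008 ± 0.14 (SE) in a fit over every probe set. The difference of Cel was read close to the olfactory receptor level taken for background. On Balb/cBy replicates 2 and 3 Cel read 7.86 and 7.97, under that level.

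Among the 27 other acinar genes 24 were lower in Balb/cBy and 3 higher, where 51% of all probe sets were lower. Their median difference was -0.13, beside -0.0031 over all. By limma 0 passed, as did 0% of all probe sets. At an unadjusted p under 0.05 there were 2 lower, where 1.18% of all probe sets were. They were Ctrl at -0.35 ± 0.13 (SE) and Reg3b, a secreted antibacterial lectin named after its value was seen, at -0.34 ± 0.13 (SE). The mean of Reg3b over all arrays, 7.21, lay under the olfactory receptor level. Without Balb/c replicate 3, 20 of 27 were lower, where 51.8% of all probe sets were, and the median was -0.075, beside -0.0057 over all. Try4 differed by -0.61 ± 0.38 (SE) with all arrays and by -0.094 ± 0.11 (SE) without that one. Of the 5 acinar transcription factors 0 passed, as did 0% of all probe sets, with differences from -0.17 for Nr5a2 to 0.10 for Ptf1a.

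**Figure D4:**
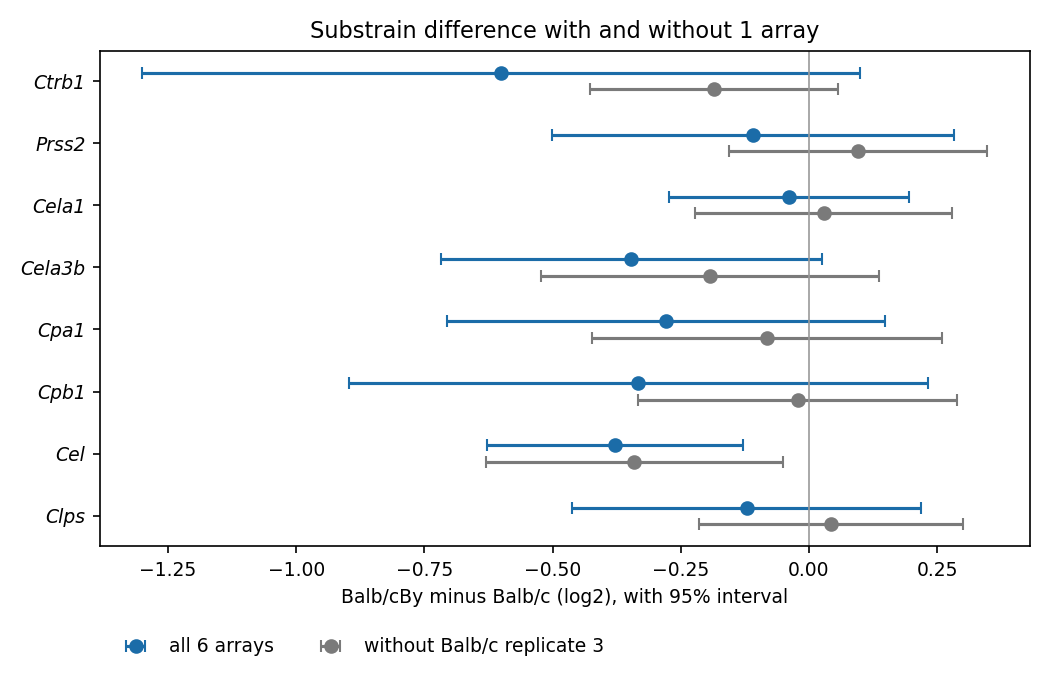
Balb/cBy minus Balb/c difference of the 8 enzymes in log2 units (x axis) with limma's 95% interval, over all 6 arrays (blue) and without Balb/c replicate 3 (grey). The interval of Cel lies below 0 in both fits, while the other 7 intervals include 0, and Ctrb1 moves from -0.60 to -0.19.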

How the data were processed

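For each of 6 mice, 500 ng of liver RNA was labelled with the WT PLUS kit for an Affymetrix array, per the labels' protocols. The deposited table holds log2 values made with RMA by the authors, per the submitters' processing notes; software, version and genome build are not given in the sources used here. They ranged from 3.31 to 14.84. No detection measure was used. Of 41345 probe sets, the platform annotation gives 23521 a single symbol, 1814 several and 16010 none.

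Groups came from the titles. A linear model with the substrain as its term was fitted with limma 3.58.1 (R 4.3.3) to the 23521 probe sets, with empirical Bayes moderation, two-sided tests and Benjamini-Hochberg adjustment over all of them. Probe sets of several symbols were fitted over all 41345. An exact permutation test of 3 against 3 cannot go below 0.1. The number of arrays limits the precision. The fit was tested on simulated data.

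Members and lists were chosen with earlier results of these data known. Named were all members, the up to 4 genes of highest mean or 2 of widest range in each list (shortened here for lists without an excess), the 5 genes most like the members, and those said to be named after their values were seen. Promoter sequences are RefSeq's, in GRCm38.p6. Alternatives covered the probe sets fitted, normalization, moderation, array weights, a replicate block and leaving out each array.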

Additional observations from a re-analysis of the deposited data

How the results depend on the processing

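The count of enzymes past the threshold was 0 under every alternative run. Of 117 refits of single enzymes, 113 kept the sign and the side of the threshold and 4 turned sign. Many of these could not turn, because changing the moderation, the probe sets fitted or the replicate block leaves an enzyme's own difference the same. The signs were thus open to change only under normalization, array weights and leaving out arrays. Prss2 turned to 0.044 with array weights. Without 1 array at a time its difference ran from -0.25 to 0.097, that of Clps from -0.21 to 0.043 and that of Cela1 from -0.10 to 0.028, each turning only without Balb/c replicate 3. The median over the 8 enzymes ran from -0.43 to -0.052 in these fits, being lowest in size without Balb/c replicate 3, and that of the other acinar genes from -0.18 to -0.075. With array weights the medians were -0.17 and -0.13. Adding the probe set shared by Cela2a and Ctrc, an alternative chosen after seeing the data, gave -0.28. Keeping the probe sets above the olfactory receptor level left 5 enzymes (median -0.28) and gave no value for Cpb1, Prss2 and Cela3b. With the replicate number as a block the median stayed at -0.31 and 0 enzymes passed. Deviations of same-numbered arrays from their group means correlated at -0.32, -0.19 and -0.23. With 3 arrays per group such values cannot show whether same-numbered arrays shared a step of handling. Dim signal limits what can be seen of Prss2, Cpb1 and Cela3b, whose means lay under the olfactory receptor level. The means of Cel, Clps and Cpa1, at 8.18, 8.19 and 8.20, lay only a little above it.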

Other observations

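Some genes of other tissues varied between arrays with their highest values elsewhere than on Balb/c replicate 3. Retn, the adipose hormone resistin, read 8.94, 8.60 and 8.84 in Balb/c and 8.46, 9.34 and 9.61 in Balb/cBy, so Balb/cBy replicates 2 and 3 were the highest. Adipoq, adiponectin, was likewise highest on Balb/cBy replicates 2 and 3, at 7.97 and 7.89, but read 7.73 on Balb/c replicate 1. The substrain differences were 0.34 ± 0.27 (SE) for Retn and 0.29 ± 0.19 (SE) for Adipoq, and neither passed limma's adjusted p. Aqp1, a water channel of bile ducts and vessels, read 10.52, 10.58 and 10.16 in Balb/c and 9.54, 10.14 and 10.44 in Balb/cBy, the lowest array being Balb/cBy replicate 1. Serpina1a, a protease inhibitor secreted by hepatocytes, was highest on Balb/cBy replicate 2 at 11.85 and differed by 0.55 ± 0.21 (SE), without passing. Fabp2, by contrast, was highest on Balb/c replicate 3 and 0.80 above the mean of the other 5 arrays. It differed by -0.73 ± 0.20 (SE), with groups that did not overlap and Balb/cBy lower, and did not pass either.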
